A study of Mus musculus with 2 samples.

Results

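Mir214 and the Mir199 genes are 4 of the 2202 microRNA (miRNA) genes counted in gastrocnemius, the large calf muscle of the mouse. They were taken by their GENCODE M21 symbols, Mir199a-1, Mir199a-2, Mir199b and Mir214, and their sense-strand counts were read. The tissue is from adult females, 18 to 20 months old, of the hybrid mouse strain B6CASTF1/J from The Jackson Laboratory, and the labels name no treatment. The study holds 2 microRNA-seq libraries of this single group, numbered as biological replicates 1 and 2, with one donor entry for both and separate tissue entries. Whether they came from separate animals is not given in the sources used here, so their spread may be technical, and p-values between them compare these libraries and not conditions.

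Both miRNA families are known from fibroblasts and other mesenchymal cells, which in muscle lie between the fibres. A primary transcript is cut to a hairpin, and the hairpin to a duplex whose 5p or 3p strand is loaded into an Argonaute protein and pairs with messenger RNAs through its seed, bases 2 to 8. The genes lie in the dynamin genes, which encode GTPases of membrane fission, on the strand opposite to each. Mir199a-2 and Mir214 are made from one long noncoding RNA, Dnm3os, whose transcription is known to be driven by the mesenchymal factor TWIST. MiR-214 is known in muscle for repressing Ezh2, a Polycomb methyltransferase, during myogenic differentiation, and miR-199a-5p for repressing the caveolin gene Cav1 in fibrotic fibroblasts.

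The mature strands are shown first because they decide which reads could be counted for which gene. RefSeq (GRCm38.p6) lists them as follows, with the seed in capitals.
miR-214-3p: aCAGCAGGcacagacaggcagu
miR-214-5p: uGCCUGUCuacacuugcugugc
miR-199a-3p: aCAGUAGUcugcacauugguua
miR-199b-3p: aCAGUAGUcugcacauugguua
miR-199a-5p: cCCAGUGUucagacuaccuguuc
MiR-199a-3p and miR-199b-3p were the same 22 bases, and 3 hairpins held them, those of Mir199a-1, Mir199a-2 and Mir199b. MiR-199a-5p, of 23 bases, lay in 2 hairpins, those of Mir199a-1 and Mir199a-2. Each mature strand of Mir214 lay in 1 hairpin among the 2202 searched on both strands. MiR-199b-5p has no entry in the table used. The Mir199b hairpin held a stretch at its bases 26 to 48 that differed from miR-199a-5p by 1 of 23 bases, C10U, counted from 1 at the 5′ end of miR-199a-5p with its base first. That stretch is shown with the differing base in capitals.
Mir199b bases 26 to 48: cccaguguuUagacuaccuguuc
The seeds of miR-214-3p and miR-199a-3p differed at 2 of 7 positions, by C5U and G8U, counted from the 5′ end with the base of miR-214-3p first. Over their 22 bases, 8 were identical.

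The hairpins show where a gene's own sequence lies. Capitals mark every stretch of at least 20 bases that another annotated hairpin also held.
Mir214: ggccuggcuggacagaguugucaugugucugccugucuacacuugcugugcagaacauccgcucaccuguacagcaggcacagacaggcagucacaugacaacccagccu
Mir199b: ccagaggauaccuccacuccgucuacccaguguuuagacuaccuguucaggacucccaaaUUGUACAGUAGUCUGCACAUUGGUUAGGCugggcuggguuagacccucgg
Mir199a-2: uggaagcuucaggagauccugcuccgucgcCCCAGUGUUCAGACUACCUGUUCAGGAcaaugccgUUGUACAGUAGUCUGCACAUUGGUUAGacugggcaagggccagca
Mir199a-1: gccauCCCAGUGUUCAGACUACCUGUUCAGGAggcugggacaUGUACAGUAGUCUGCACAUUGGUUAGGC
No base of the Mir214 hairpin was shared in this way. In Mir199b 29 of 110 bases were shared, all around the 3p strand, and in Mir199a-2 54 of 110 bases, in a stretch of 27 bases around each strand. Mir199a-1, annotated over 70 bases only, shared 55 of them. Its longest shared stretch, with Mir199b, was 28 bases. The labels give a size range under 30 bases. The deposited files tally reads that map to several places apart from the gene counts, at 80.7% of reads for replicate 1 and 71.0% for replicate 2. A read of 22 bases made only of capitals above enters no gene count, so the levels of Mir199a-1, Mir199a-2 and Mir199b are lower bounds for their mature miRNAs. Reads that reach beyond the shared stretch can be placed. Of all positions where a read of 22 bases could lie, 12 of 89 were shared in Mir199a-2, 8 of 89 in Mir199b, 13 of 49 in Mir199a-1 and 0 of 89 in Mir214. These weigh every position alike and are not shares of reads, since the listed Mir199 strands all lie in shared sequence. The search covered annotated hairpins and not the genome.

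**Figure D1:**
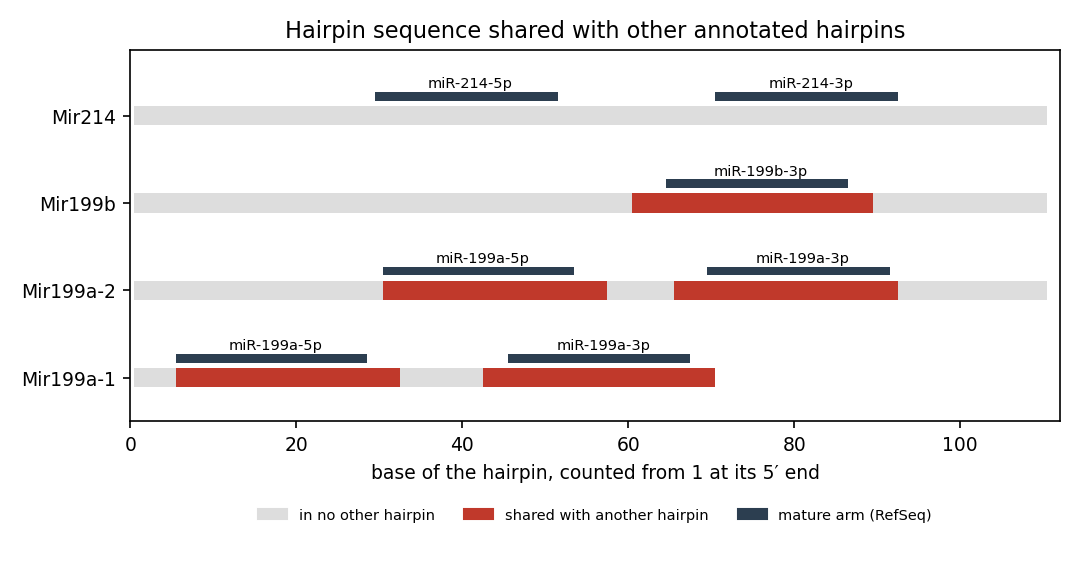
Each bar is one hairpin, drawn by base from its 5′ end, with stretches of at least 20 bases held by another annotated hairpin in red and the mature strands listed by RefSeq in dark blue above. Both strands of Mir199a-1 and Mir199a-2 and the 3p strand of Mir199b lie in shared sequence, and Mir214 has none.

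Genes with a listed mature strand were set apart by whether those strands lay in another hairpin, and genes without one were left out. The share that reached a mean of 10 counts was lowest where all strands did and highest where only some did. Of 51 genes whose listed mature strands all lay in a hairpin elsewhere, the 3 Mir199 genes among them, 6 (11.8%) reached a mean of 10 counts. Of 910 genes with no listed strand elsewhere, Mir214 among them, 237 (26.0%) did. Of 61 genes with some but not all listed strands elsewhere, 33 (54.1%) did. Over all genes of each set, the median level was 0 CPM in the first, 0.230 CPM in the second and 16.8 CPM in the third. Among only the genes that reached a mean of 10 counts, which selects by level, the medians were 87.1, 74.7 and 111 CPM. The first of these rests on 6 genes, Mir199b and Mir199a-2 among them. Mir199b is in that set by its 1 listed strand. Its other strand has no entry, and that side of its hairpin was not shared. The sets therefore separate genes by listed strands only, and a strand without an entry could place a gene in another set.

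On mm10, Mir199a-2 (ENSMUSG00000070126.1) lies on the plus strand of chromosome 1 at chr1:162217814-162217923, and Mir214 (ENSMUSG00000065516.1) at chr1:162223368-162223477. The hairpins are 5444 bases apart. Mir199a-2 begins 191 bases after the start of Dnm3os and lies in an exon of 5 of its 6 annotated transcripts. Mir214 begins 5745 bases after that start and lies in an exon of 3 of the 6. Both lie within introns of Dnm3, which runs on the other strand. Mir199b (ENSMUSG00000092807.1, chr2:32318460-32318569, plus strand) lies in an intron of Dnm1, and Mir199a-1 (ENSMUSG00000065547.1, chr9:21496495-21496564, minus strand) in an intron of Dnm2, again on the strand opposite to the host. The only other counted miRNA gene inside these dynamin genes, Gm23363 in Dnm1, had 0 counts in both libraries.

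**Figure D2:**
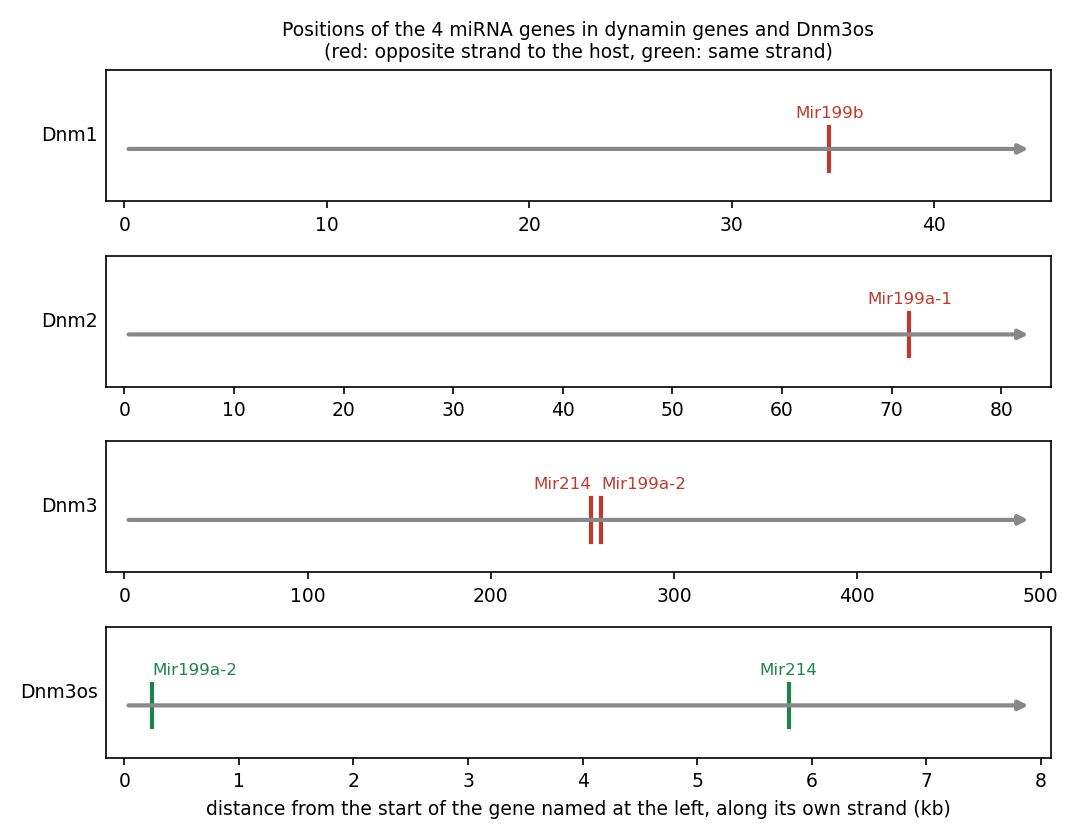
Each panel runs along one gene from its start, in kb on its own strand, with the miRNA genes inside it in red where they lie on the opposite strand and in green where they share the strand. The 4 miRNA genes face 3 dynamin genes, and Mir199a-2 and Mir214 lie along Dnm3os.

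Mir214 was by far the most counted of the 4 genes in both libraries. It had 488 counts in replicate 1, or 564 counts for every 1000000 gene counts (CPM; exact Poisson interval 515 to 616), and 2906 counts in replicate 2, or 1335 CPM (1287 to 1384). Its mean was 949 ± 545 CPM (SD, n = 2), and it ranked 72 and 53 among all counted genes. Replicate 2 was the higher library, and the intervals, which cover counting error only, do not overlap.

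Mir199b, the copy whose 5p side differs by the base given above, followed at a much lower level. It had 44 counts (50.8 CPM, 36.9 to 68.3) in replicate 1 and 91 (41.8 CPM, 33.7 to 51.3) in replicate 2, a mean of 46.3 ± 6.39 CPM. The libraries overlapped within counting error.

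Mir199a-2, first in the Dnm3os transcript, had 13 counts in each library, or 15.0 CPM (8.00 to 25.7) in replicate 1 and 5.97 CPM (3.18 to 10.2) in replicate 2. Its mean was 10.5 ± 6.40 CPM, with replicate 1 the higher library and overlapping intervals. Mir199a-1, the copy in Dnm2, had 3 counts (3.47 CPM, 0.715 to 10.1) in replicate 1 and 0 in replicate 2, where 0 counts allow up to 3 counts or 1.38 CPM.

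The order was therefore Mir214, Mir199b, Mir199a-2, Mir199a-1 in both libraries. Per 100 bases of hairpin it was the same, at 513, 46.2, 13.7 and 4.95 CPM in replicate 1 and 1213, 38.0, 5.43 and 0 CPM in replicate 2. The 2 values of each gene lay clear of those of its neighbours, and in replicate 1, where both Mir199a copies had counts, Mir199a-2 exceeded Mir199a-1 by 4.33 to 1 (exact interval 1.19 to 23.7). Because the Mir199 values leave out reads of shared sequence, the order is one of counts and not of mature miRNAs.

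Together the 4 genes held 548 counts (0.0633% of gene counts, exact Clopper-Pearson interval 0.0581 to 0.0689) in replicate 1 and 3010 (0.138%, 0.133 to 0.143) in replicate 2. Mir214 made up 89.1% and 96.5% of them. The sum thus follows Mir214, while the 3 Mir199 genes summed to 69.3 CPM in replicate 1 and 47.8 CPM in replicate 2.

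**Figure D3:**
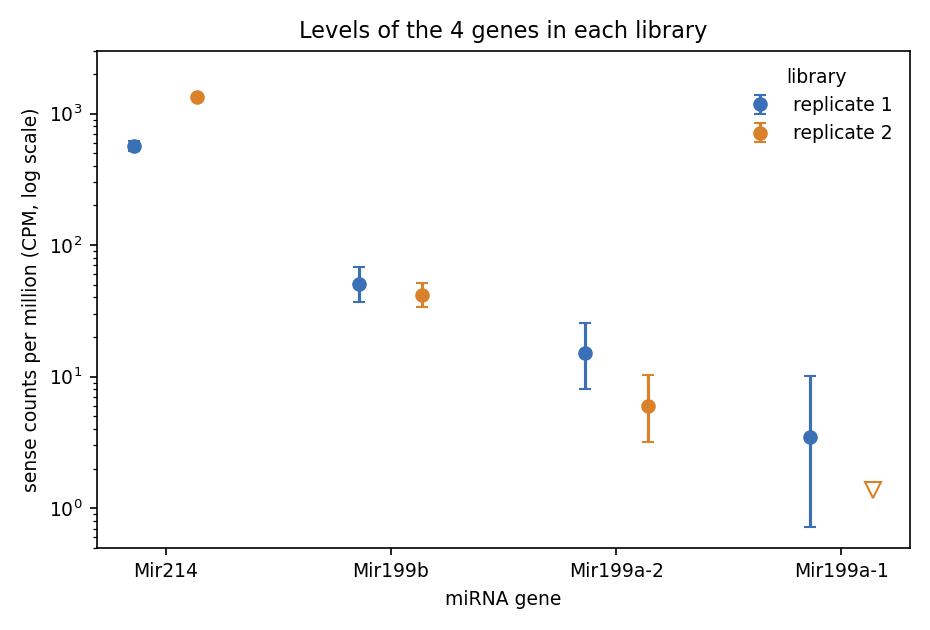
Points are sense CPM on a log axis for each gene and library, with exact Poisson intervals, and the open triangle marks the level that 0 counts allow. Mir214 stands above the other genes in both libraries, and its libraries do not overlap.

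Mir214 and Mir199a-2, which share a host transcript, lay on opposite sides of equality between the libraries. Their counts are not alike, since both listed strands of Mir199a-2 also lie in Mir199a-1, and those of Mir214 lie in no other hairpin. The share of reads that map to several places also differed, at 80.7% in replicate 1 and 71.0% in replicate 2. Whether their mature miRNAs differed in this way cannot be read from these counts. The 305 genes that averaged 10 or more counts were tested by an exact binomial test, two-sided and conditional on the library totals. P-values were adjusted over all 305 by Benjamini-Hochberg, and a call needed an adjusted p below 0.05 together with a 2-fold difference. Mir214 stood 2.37-fold higher in replicate 2 (interval 2.15 to 2.61, adjusted p = 7.79e-83 by this exact test). Mir199a-2 was 2.52-fold higher in replicate 1 (1.07 to 5.89, adjusted p = 0.0398 by the exact test). Mir199b, at 0.822 times its level in replicate 1 (0.568 to 1.21), was not called, with an adjusted p of 0.361 by the exact test. Mir199a-1 was under the count filter and at or under the floor in both libraries, so no ratio is given.

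Calls were common among all genes. Of the 305 tested, 103 (33.8%) were called, 26.9% toward replicate 2 and 6.89% toward replicate 1. Among the 4 genes, 3 were tested, with 1 called in each direction. The ratios of Mir214, Mir199b and Mir199a-2 ranked 80, 241 and 291 of 305 from the highest toward replicate 2. Their log2 ratios were 1.24, -0.28 and -1.33, beside a median of 0.43 over all tested genes, which places them 0.81 above and, by -0.72 and -1.77, below the median gene. The median of the 3 was -0.28.

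These calls had limits. TMM and DESeq2 size factors, which lower every log2 ratio by 0.28 and 0.42, put Mir214 at 0.96 and 0.83, under the 2-fold threshold, and moved the share of called genes higher in replicate 2 from 79.6% to 67.3% and 59.8%. The Mir199a-2 call rests on 26 reads and was lost without the count filter (adjusted p = 0.0755 by the exact test over 606 genes).

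**Figure D4:**
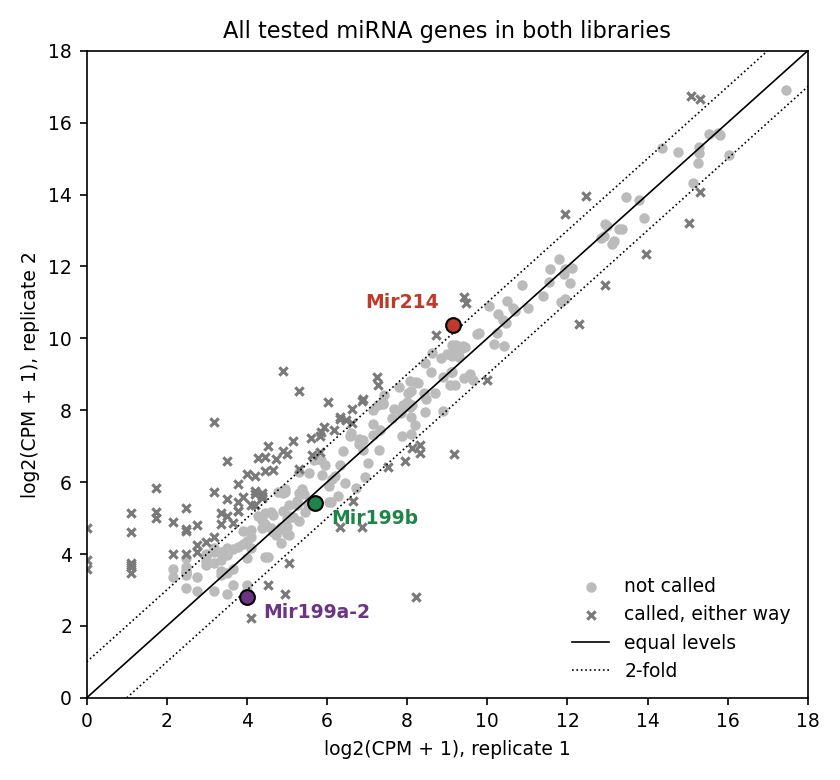
Each point is 1 of the 305 tested genes, with log2(CPM + 1) in replicate 1 across and in replicate 2 upward; crosses are called genes, and the dotted lines mark a 2-fold difference. Mir214 lies just above the upper line, Mir199a-2 just below the lower one and Mir199b between the lines.

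Ratios of counts within a library need no library total. Mir214 and both Mir199 genes counted in each library stood further apart in replicate 2. These changes follow from the same counts as the gene ratios given above and are no separate support for them. Mir214 exceeded Mir199a-2 by 37.5 to 1 in replicate 1 (exact interval 21.7 to 71.0) and by 224 to 1 in replicate 2 (131 to 420), and the ratio was 5.95 times as high in replicate 2 (exact conditional interval 2.52 to 14.0). Against Mir199b it stood at 11.1 to 1 (8.14 to 15.5) and 31.9 to 1 (25.9 to 39.8), a change of 2.88 times (1.94 to 4.23). Both intervals of change lie above 1.

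Between the 2 Mir199 genes with counts in both libraries, the change lay within counting error. Mir199b exceeded Mir199a-2 by 3.38 to 1 (1.79 to 6.85) and 7 to 1 (3.90 to 13.6), and the interval of the change, 0.805 to 5.28 around 2.06, includes 1. Mir214 exceeded Mir199a-1 by 163 to 1 in replicate 1 and by at least 969 to 1 in replicate 2, taken against 3 counts per library. The multimapping share also differed between the libraries, as given above, and its part in these ratios was not tested.

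**Figure D5:**
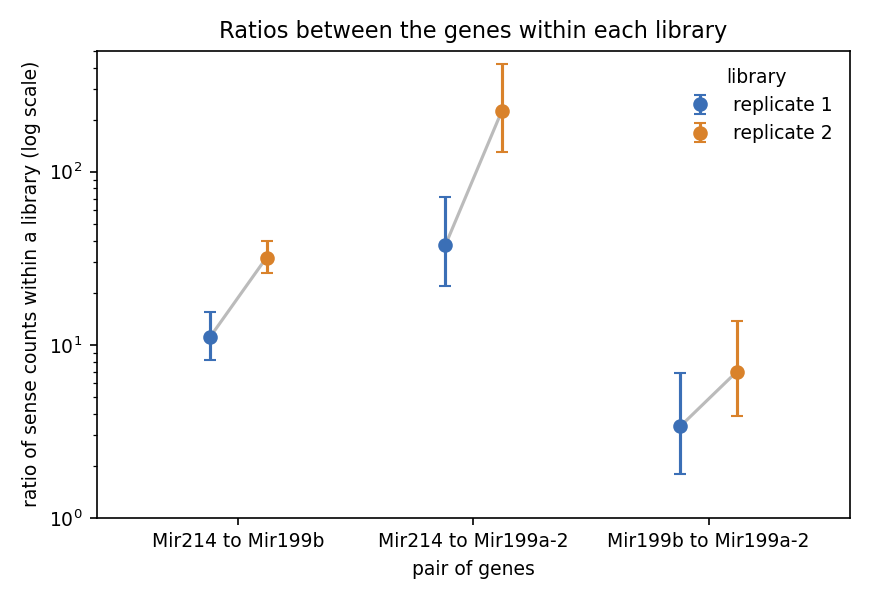
Points are ratios of sense counts of 2 genes in the same library on a log axis, with exact intervals that cover counting error; a line joins the 2 libraries of a pair. Both ratios with Mir214 are higher in replicate 2 with intervals that do not overlap, and those of Mir199b to Mir199a-2 overlap.

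On the antisense strand, Mir214 had 1 count in replicate 1 and 5 in replicate 2, or 0.204% and 0.172% of its counts on both strands, and the 3 Mir199 genes had 0. Over all counted genes, antisense counts summed to 221391 in replicate 1 and 450580 in replicate 2, with genes that face another miRNA gene included. Few of the genes compared next, which leave those out, had any. Of 153 genes that averaged 100 or more counts and face no other miRNA gene, 9 had an antisense count, and the share of Mir214 over both libraries, 0.176%, was the fourth highest. The Mir199 genes had at most 91 sense counts in a library, too few to show a share near that of Mir214. The Mir214 hairpin holds a stretch of 11 bases that recurs on its own other strand, against 7 or 8 bases in the Mir199 hairpins. Whether this stretch bears on the antisense counts was not tested.

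Among all miRNAs listed by RefSeq, miR-761 alone outside these genes shared a seed with one of their mature strands, that of miR-214-3p. It is shown with the seed in capitals.
miR-761: gCAGCAGGgugaaacugacaca
Its gene Mir761, on chromosome 4, had 1 count in replicate 1 and 2 in replicate 2, at or under the floor.

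The genes closest to each in level and ratio were the 3 nearest in the plane of log2(CPM + 1) of both libraries, a likeness over 2 libraries only. For Mir214 they were Mir497 (419 and 1099 CPM in replicates 1 and 2, called higher in replicate 2), Mir128-1 (558 and 908 CPM) and Mir101b (590 and 908 CPM), at distances of 0.51 to 0.56. For Mir199b they were Mir331, Mir340 and Mir34c, at 0.18 to 0.35. For Mir199a-2 they were Mir211, Mir20b and Gm23935, at 0.18 to 0.49. Apart from Mir497, none of these 9 genes was called.

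Other miRNAs known from mesenchymal cells stood far above the 4 genes in summed gene counts, and most were lower in replicate 2. The sums are not alike, because the Mir199 counts leave out reads of shared sequence. No listed strand of Mir22, Mir10a, Mir10b, Mir100 or Mir152 lay in another hairpin. The comparison is therefore one of counts and not of mature miRNAs. The mesenchymal list (Mir143, Mir145a, Mir152, Mir10a, Mir10b, Mir100 and Mir22) held 16.3% and 17.0% of gene counts in replicates 1 and 2. Mir22 carried the near-equal sums, since the 6 others, each with fewer CPM in replicate 2, held 12.9% and 6.10%; Mir152 was nearly level. All 7 members were tested; 1 was called toward replicate 2 and 2 toward replicate 1, against 26.9% and 6.89% of all tested genes, with a median log2 ratio of -0.55 beside 0.43 over all genes. Mir22, the one higher in replicate 2, had 34676 and 108765 CPM, and made up most of the list's sum in that library. Which cells of this muscle its counts came from is not known, so that sum is not a measure of mesenchymal cells. Mir10b of the Hoxd cluster had 33546 and 9434 CPM and was called higher in replicate 1, as was Mir145a. Mir143, of smooth muscle and stromal cells, had 67550 and 35143 CPM and Mir100 had 15317 and 10436 CPM, and neither was called.

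Of 9 miRNAs of fibrosis, a process in which both families have been studied, 2 were called toward replicate 2, 1 toward replicate 1 and 6 in neither direction, a share called close to the 33.8% of all tested genes. Their median log2 ratio was 0.13. Mir21a, which rises in fibrotic tissue, had 15929 and 5232 CPM and was higher in replicate 1. The collagen-repressing Mir29a, at 14193 and 14792 CPM, Mir29c, at 3672 and 2046 CPM, and the senescence miRNA Mir34a, at 460 and 694 CPM, were not called. Mir29b-1 and Mir433 were the 2 higher in replicate 2.

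Some markers of other cell types also differed between the libraries, while the endothelial and erythroid lists held no called gene. The part of any of these markers in the Mir214 difference was not tested. The counts of called markers below, from lists of 1 to 7 genes, stand beside 26.9% of all tested genes called toward replicate 2 and 6.89% toward replicate 1. The striated muscle list summed to 4.07% of gene counts in replicate 1 and 10.4% in replicate 2, nearly all of it counts of the muscle miRNA Mir206, with 1 of 5 tested members called and 0 of 6 at 0 counts. Reads that map to several places enter none of the sums given here. The sums are therefore of gene counts and not of mature miRNAs, and the share of Mir206 among mature muscle miRNAs is not known from them. The smooth muscle list summed to more in replicate 1, at 7.54% and 3.80% (1 of 2 called higher in replicate 1). Its 2 genes, Mir143 and Mir145a, are also in the mesenchymal list, so the same counts enter both sums. Endothelial Mir126a stood at 4.73% and 5.30%, not called. The leukocyte list held 0.362% and 0.408% (2 of 4 called, both higher in replicate 1), the erythroid list 0.0230% and 0.0316% (0 of 2 called) and the epithelial list 0.0342% and 0.0270% (4 of 5 tested called toward replicate 2 and 1 toward replicate 1, with 2 of 7 at 0 counts in replicate 1). Of 6 neural genes, 5 were at 0 in replicate 1 and 4 in replicate 2, and none reached the count filter for the test. The members of the fibroblast list are the 4 genes themselves. In bulk tissue, fewer cells of a type and less RNA per cell cannot be told apart.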

How the data were processed

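MicroRNA-seq was run on 2 gastrocnemius libraries. The deposited values are raw counts of reads per miRNA gene on mm10 with GENCODE M21, per the deposited README; aligner, counter and trimming: not given in the sources used here. The 3 unnamed count columns were read, from their values, as unstranded, sense and antisense, and the sense column was used. Replicate 1 held 865419 gene counts (12.6% of 6888732 reads) and replicate 2 2177048 (18.1% of 12001270); the 4 tallies stayed out of totals and tests.

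CPM, exact intervals at 95%, and exact conditional binomial tests were computed from these counts with Python 3.11.15, SciPy 1.17.1 and pandas 2.3.3. The floor for 0 counts was 3 counts. No molecular identifiers were counted, so reads are not independent molecules and intervals hold counting error alone. With 1 group, edgeR has no contrast to test; edgeR 4.0.16 and DESeq2 1.42.0 gave scaling factors from the 305 tested genes in R 4.3.3. Mature sequences come from RefSeq (GRCm38.p6), where all 4 genes matched, with the coordinates and hairpins of GENCODE. Genes named are the 4, their 3 nearest genes, miRNAs of the dynamin genes or with a shared seed, and the 4 highest of the mesenchymal and fibrosis lists; Mir145a, Mir29b-1, Mir433, Mir206 and Mir126a were added after their values were seen. The members and lists were chosen with earlier results of these data known. Alternatives were the unstranded column, other filters, scalings and thresholds, and each library left out.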

Additional observations from a re-analysis of the deposited data

How the results depend on the processing

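Of 305 tested genes 103 were called between the libraries, against 50 of 170 that averaged 100 or more counts, and 207 when no ratio was required; every other setting gave 92 to 105. The Mir214 log2 ratio of 1.24 fell under the threshold with TMM (0.96) and DESeq2 size factors (0.83), and with DESeq2 size factors from all genes (0.90), but not with TMM factors from all genes (1.09). The factors from all genes were added after seeing the data. The Mir199a-2 log2 ratio stayed at -1.33 without a filter, where more genes enter the adjustment and the call was lost; its adjusted p ranged from 0.00673 to 0.0755 over the settings run (exact binomial test). Mir199b was called in none, with log2 ratios of -0.70 to -0.28 and adjusted p of 0.0186 to 0.539 (exact binomial test). With DESeq2 size factors (0.0186) and those from all genes (0.0335), its adjusted p by this test was below 0.05, and only the 2-fold threshold was not met. Mir199a-1 passed the filter in no setting that had one.

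Against all reads of the files in place of gene counts, mean levels were 156 for every 1000000 reads for Mir214, 6.98 for Mir199b and 1.49 for Mir199a-2. Mir199b stood at 60.5 CPM in the unstranded column and at 54.9 CPM with Mir378a left out of the totals. With a library left out, the levels ranged from 564 to 1335 CPM for Mir214, 41.8 to 50.8 for Mir199b, 5.97 to 15.0 for Mir199a-2 and 0 to 3.47 for Mir199a-1. The log2 ratios within a library then ranged from 3.47 to 5.00 for Mir214 to Mir199b, 5.23 to 7.80 for Mir214 to Mir199a-2 and 1.76 to 2.81 for Mir199b to Mir199a-2. No paired analysis was possible because the study has 1 group. Counts of 13 and below limit Mir199a-2 and Mir199a-1 most.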
